A study of Mus musculus with 12 samples.

Results

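A set of 8 genes of the glycerol phosphate route of triglyceride synthesis was followed in mouse kidney, namely the lipins Lpin1, Lpin2 and Lpin3, the acyltransferases Gpam, Agpat2 and Agpat3, and the diacylglycerol acyltransferases Dgat1 and Dgat2. They were chosen by name, and all 8 were found by Entrez identifier among the 24532 gene identifiers of the 12 deposited tables. The kidneys came from FXR KO mice, strain Nr1h4tm1Gonz/J, and from WT mice, strain C57BL/6. FXR KO mice received GW4064 (FXR KO GW4064, 3 libraries) or vehicle (FXR KO vehicle, 3 libraries), and WT mice received GW4064 (WT GW4064, 3 libraries) or vehicle (WT vehicle, 3 libraries). GW4064 is a synthetic agonist of FXR, the bile acid receptor encoded by Nr1h4. The design text states 6 h of GW4064 and an overnight fast for the study as a whole. The labels give no age or sex and do not say what the vehicle was. The knockout allele is carried by every cell of the animal, so an effect of FXR in kidney cannot be told apart from one that reaches the kidney from another organ. The labels also do not say that KO and WT mice were littermates, so genotype and strain cannot be told apart. Because the labels do not say whether replicates are separate animals, p-values measure only the spread between these samples.

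Triglyceride is built on glycerol 3-phosphate. A glycerol-3-phosphate acyltransferase such as the mitochondrial enzyme encoded by Gpam adds the first acyl chain, and an AGPAT adds the next to give phosphatidate. Lipins are magnesium-dependent phosphatases that remove the phosphate from phosphatidate to give diacylglycerol, and DGAT1 or DGAT2 adds the last chain. Lipin 1 can also act in the nucleus with PPARα and PGC-1α on genes of fatty acid oxidation, and in mouse liver its expression is raised by fasting. Tubule cells of the kidney burn fatty acids and store the excess in droplets.

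The 3 lipins share the catalytic motif of their phosphatase family, which is shown because the levels of close relatives are set side by side here. Each line gives 60 coding bases of 1 GENCODE transcript per gene, 5′ to 3′, from the GRCm38 genome with GENCODE M21 annotation, and the capitals mark the 15 bases that code for the aspartate motif DXDGT. The Lpin1 stretch lies at chr12:16546795-16547532 on the minus strand (exons 16 and 17 of 21), the Lpin2 stretch at chr17:71243390-71243937 on the plus strand (exons 15 and 16 of 20) and the Lpin3 stretch at chr2:160903705-160903936 on the plus strand (exons 15 and 16 of 20), and each span includes an intron.
Lpin1: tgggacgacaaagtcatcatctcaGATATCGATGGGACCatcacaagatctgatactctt
Lpin2: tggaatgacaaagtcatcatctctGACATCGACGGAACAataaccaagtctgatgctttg
Lpin3: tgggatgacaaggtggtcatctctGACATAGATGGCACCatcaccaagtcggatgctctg
Lpin1 and Lpin2 were identical at 46 of these 60 bases, Lpin1 and Lpin3 at 46, and Lpin2 and Lpin3 at 49. Over the whole transcripts the longest run of identical bases was 24 between Lpin1 and Lpin3, 19 between Lpin1 and Lpin2 and 17 between Lpin2 and Lpin3.

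All of the genes are protein-coding, and each had 1 entry per table. On mm10 as deposited, Lpin1 (Entrez 14245) spans chr12:16535669-16589770, Lpin2 (64898) chr17:71183978-71249818 and Lpin3 (64899) chr2:160880670-160906000. Gpam (14732) spans chr19:55069734-55099447, Agpat2 (67512) chr2:26593057-26604417 and Agpat3 (28169) chr10:78271563-78351700. Dgat1 (13350) spans chr15:76502012-76511994 and Dgat2 (67800) chr7:99153663-99182713. Agpat2 overlaps Egfl7 on the opposite strand over 64 bases, 3.0% of its transcript, and the sources used here do not say whether counting used strand. Agpat3 lies 11.1 Mb from Nr1h4 on the same chromosome, so for Agpat3 loss of FXR cannot be told apart from a linked strain segment.

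Expression is given as TPM, a per-length level that the authors scaled to the same total in every library. Depth was 2.86 to 4.27 mapped gigabases, and 16693 to 17186 genes were above 0 per library. Log2 profiles correlated at 0.982 to 0.988 within groups and 0.970 to 0.987 between groups. Nr1h4 was at 105, 131 and 134 TPM in FXR KO GW4064, 120, 116 and 113 in FXR KO vehicle, 189, 206 and 242 in WT GW4064 and 217, 267 and 249 in WT vehicle libraries, so a transcript remained in the knockout. The drop in Nr1h4 passed on both treatments (limma adjusted p = 1.9e-04 on vehicle and 4.4e-04 under GW4064). Kidney markers were high in every library: summed proximal tubule markers, mostly Kap, stood at 60181 to 66037 TPM in FXR KO GW4064, 59390 to 71144 in FXR KO vehicle, 63024 to 68141 in WT GW4064 and 54619 to 55573 in WT vehicle. Gene by gene, 7 of those 9 markers had a negative log2 difference of FXR KO from WT under GW4064. Limma called 4 of them lower, Lrp2, Cubn, Slc34a1 and Aqp1, beside 11.4% of all genes tested. Of these, Lrp2 lost the call in 4 and Slc34a1 in 18 of 26 alternatives. With GW4064 in WT 1 of the 9, Cubn, was called higher, beside 2.48% of all genes. That call was lost in 3 of 26 alternatives. Collecting duct markers summed to 317 to 360 TPM in FXR KO GW4064, 370 to 396 in FXR KO vehicle, 356 to 405 in WT GW4064 and 451 to 511 in WT vehicle libraries, so WT vehicle stood above the other groups. Of these 6 markers limma called 1 lower, Aqp2, for GW4064 in WT, and 3 lower in FXR KO on vehicle, Aqp2, Aqp3 and Slc4a1. The shares of all genes called lower there were 2.32% and 9.73%. The Aqp2 call for GW4064 was lost in 4 of 26 alternatives. On vehicle Aqp2 lost the call in 11, Aqp3 in 6 and Slc4a1 in 0 of 26. Podocyte and endothelial markers summed to 202 to 218 TPM in FXR KO GW4064, 185 to 206 in FXR KO vehicle, 219 to 233 in WT GW4064 and 242 to 266 in WT vehicle libraries. Immune markers summed to 43.2 to 52.6 TPM in FXR KO GW4064, 47.4 to 54.6 in FXR KO vehicle, 35.2 to 38.3 in WT GW4064 and 38.5 to 40.4 in WT vehicle libraries. Their part in the results was not tested. Bulk libraries also cannot tell fewer cells of a type from less RNA per cell.

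Fat markers were uneven between libraries. The 4 fat markers Adipoq, Plin1, Cfd and Cidec summed to 30.1, 9.25 and 28.6 TPM in FXR KO GW4064, 19.1, 4.11 and 32.1 in FXR KO vehicle, 1.5, 37.0 and 5.01 in WT GW4064 and 22.3, 20.3 and 30.5 in WT vehicle libraries. The 10 white fat markers, led by Fabp4, summed to 331, 203 and 241 TPM in FXR KO GW4064, 227, 199 and 247 in FXR KO vehicle, 164, 252 and 190 in WT GW4064 and 210 to 216 in WT vehicle. Lep was at 0 in 11 of the 12 libraries. The mean log2 of the 4 markers, called the fat score here, was also used as a covariate, and its result is given where it changed a call of the 8 genes.

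Agpat3, an enzyme that acylates lysophosphatidate, was the most abundant of the genes, at a mean of 239 TPM over the 12 libraries (217 to 271). Dgat2 averaged 189 TPM (147 to 220) and Gpam 140 TPM (114 to 182). Agpat3 exceeded Dgat2 in 11 of the 12 libraries, and Dgat2 exceeded Gpam in 11. Lpin2 averaged 72.6 TPM (65.6 to 80.6) and Lpin1 62.9 TPM (30.7 to 90.0), and Lpin2 exceeded Lpin1 in 8 libraries by TPM. Dgat1 averaged 36.5 TPM (30.0 to 38.8), Agpat2 31.9 (27.8 to 37.0) and Lpin3 16.1 (13.7 to 18.6). Dgat2 made up 79.5 to 86.3% of the DGAT transcripts and Agpat3 86.1 to 90.0% of the Agpat2 and Agpat3 sum. Lpin2 and Lpin3 had 36.0 to 36.1% and 46.8 to 47.3% of the coverage per unit of FPKM that the median gene of a library had. That ratio was nearly the same in every library, so it bears on levels between genes and not on changes. Levels taken from coverage, on the scale of TPM, averaged 61.2 for Lpin1 (29.8 to 87.7), 26.2 for Lpin2 (23.7 to 29.0) and 7.59 for Lpin3 (6.4 to 8.76). On that scale Lpin1 exceeded Lpin2 in all 12 libraries and Lpin2 stood below Agpat2 in 11, so the place of Lpin2 in the order is not settled. The other genes kept their levels.

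**Figure D1:**
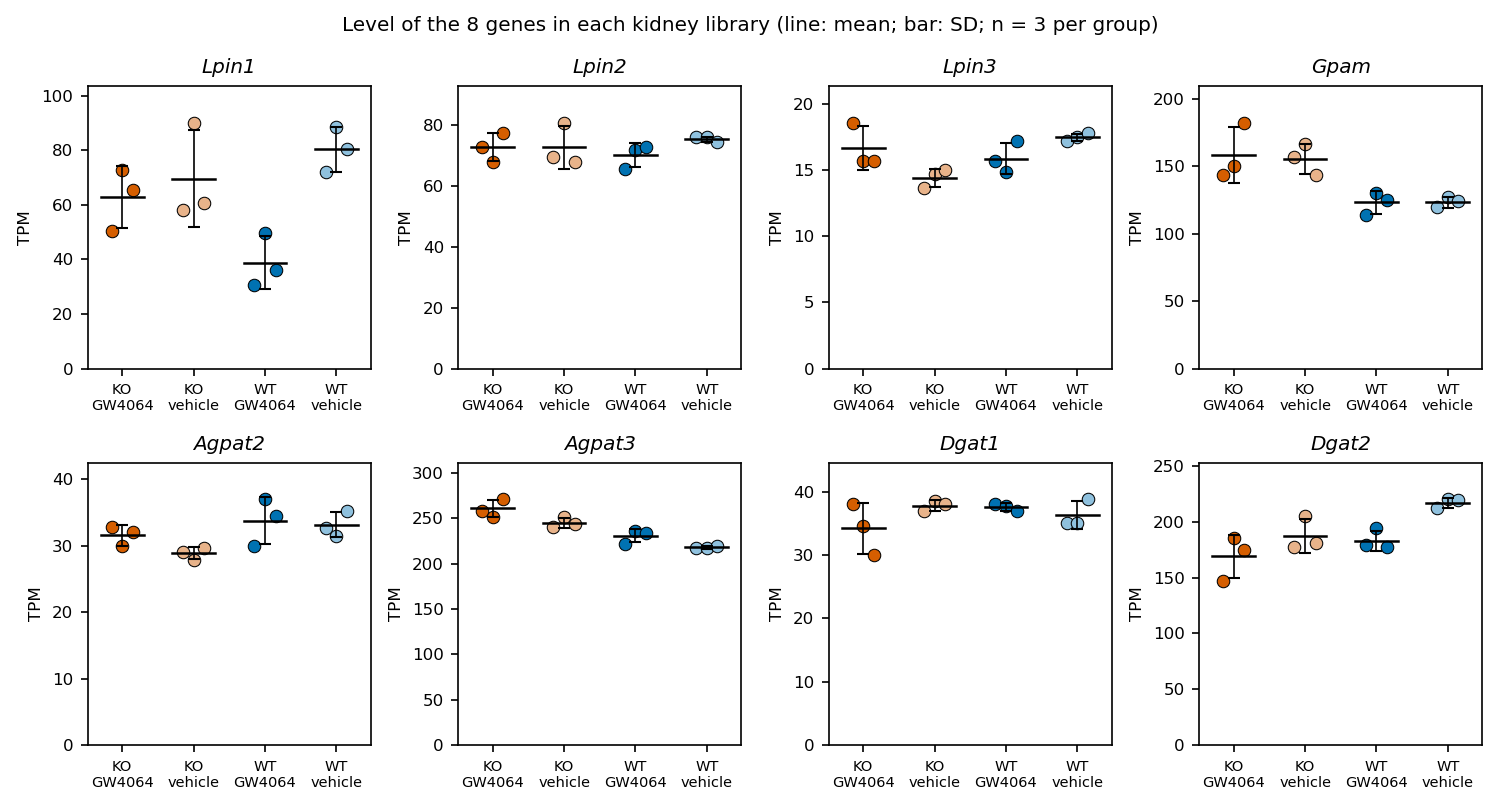
TPM of each of the 8 genes in each of the 12 libraries, with points for libraries and a bar for the mean and SD of each group (n = 3). Lpin1 sits at 30.7 to 49.7 TPM in WT GW4064 libraries and at 71.9 to 88.5 TPM in WT vehicle libraries, while Gpam and Agpat3 lie higher in the FXR KO than in the WT libraries.

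Lpin1, which encodes lipin 1, was lower after GW4064 in WT kidneys. It stood at 30.7, 49.7 and 36.0 TPM in WT GW4064 libraries, against 71.9, 88.5 and 80.3 TPM in WT vehicle libraries, 38.8 ± 9.82 and 80.3 ± 8.32 TPM (SD, n = 3 each). Every WT GW4064 library was below every WT vehicle library. The log2 change was -1.06 ± 0.20 (SE; 95% interval -1.5 to -0.62), which passed in limma with a Benjamini-Hochberg adjusted p of 0.0105. It was the only 1 of the 8 genes called for GW4064 in WT, beside 4.8% of the 14488 genes tested (2.48% higher and 2.32% lower). A further gene, Dgat2, had an unadjusted p under 0.05, beside 2793 of all genes tested. The Lpin1 call was lost when WT GW4064 replicate 1 was left out, at a log2 change of -0.91 and a limma adjusted p of 0.0535. Within the WT GW4064 libraries Lpin1 followed the fat score, lowest in replicate 1 and highest in replicate 2. In each of the other 3 groups the library with the lowest fat score, replicate 2, held the highest Lpin1. With the fat score as a covariate the log2 change was -1.07 and the limma adjusted p 0.0358.

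In FXR KO kidneys GW4064 gave no such call. Lpin1 was at 50.5, 72.9 and 65.3 TPM in FXR KO GW4064 libraries, against 58.0, 90.0 and 60.7 TPM in FXR KO vehicle libraries. The groups overlapped, and replicate 2 of the vehicle group, which had the lowest fat score of that group, held the highest Lpin1 value of all libraries. The log2 change was -0.13 ± 0.20 (95% interval -0.57 to 0.31; limma adjusted p = 0.862). None of the 8 genes was called for GW4064 in the knockout, where limma called 2 genes of all those tested (0.0138%, with 0.0069% higher and 0.0069% lower) and 1560 had an unadjusted p under 0.05. Of the 8 genes, 2 had an unadjusted p under 0.05, Lpin3 and Agpat3.

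The difference between the 2 GW4064 effects on Lpin1 was itself tested. The interaction, the knockout change minus the WT change, was 0.93 ± 0.28 (95% interval 0.31 to 1.55), with an unadjusted p of 0.00693 and a limma adjusted p of 0.107, so it did not pass. None of the 8 genes passed limma for the interaction, where 3.19% of all genes did (1.47% higher and 1.72% lower). Of the 8, Lpin1 and Lpin3 had an unadjusted p under 0.05, beside 2756 of the 14488 genes tested. Without FXR KO vehicle replicate 2, whose Lpin1 value is the highest, the interaction was 1.13 with a limma adjusted p of 0.0408. It also passed with the replicate number as a block (limma adjusted p = 0.00623), and in no other of 25 alternatives. Over these the interaction ran from 0.78 to 1.13, with a highest limma adjusted p of 0.222. With the fat score as a covariate it was 0.93, at a limma adjusted p of 0.214.

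Between genotypes, Lpin1 was higher in FXR KO than in WT kidneys under GW4064 and did not differ detectably on vehicle. Under GW4064 it averaged 62.9 ± 11.4 TPM in FXR KO and 38.8 ± 9.82 TPM in WT (SD, n = 3 each), and every FXR KO library was above every WT library. The log2 difference was 0.70 ± 0.20 (95% interval 0.26 to 1.14; limma adjusted p = 0.0312). On vehicle Lpin1 averaged 69.6 ± 17.7 TPM in FXR KO and 80.3 ± 8.32 TPM in WT, a log2 difference of -0.23 ± 0.20 (95% interval -0.67 to 0.21; limma adjusted p = 0.472). The call under GW4064 was lost in 7 of 26 alternatives, with limma adjusted p of 0.0528 without a variance trend, 0.0502 with only the 2 groups compared, 0.0648 with the fat score, 0.124 without WT GW4064 replicate 1, 0.0867 without WT GW4064 replicate 3, 0.103 without FXR KO GW4064 replicate 2 and 0.0842 without FXR KO GW4064 replicate 3. Under GW4064, 3 of the 8 genes were called, all higher in FXR KO, beside 18.5% of all genes tested (7.08% higher and 11.4% lower). That split was 1026 higher and 1651 lower as deposited, 1243 and 1317 with median-of-ratios scaling and 1306 and 1321 with quantile normalization.

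Lpin2, whose human counterpart is mutated in Majeed syndrome, did not pass in any comparison. It was at 72.6, 67.9 and 77.2 TPM in FXR KO GW4064, 69.5, 80.6 and 67.7 in FXR KO vehicle, 65.6, 71.7 and 72.8 in WT GW4064 and 75.8, 75.8 and 74.4 in WT vehicle libraries. The WT GW4064 libraries were all below the WT vehicle libraries, at a log2 change of -0.11 ± 0.07 (95% interval -0.26 to 0.05; limma adjusted p = 0.446).

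Lpin3, the least abundant lipin, was lower in FXR KO than in WT kidneys on vehicle. It was at 13.7, 14.7 and 15 TPM in FXR KO vehicle libraries, against 17.2, 17.5 and 17.8 TPM in WT vehicle libraries, and these groups did not overlap. The log2 difference was -0.27 ± 0.08 (95% interval -0.44 to -0.09; limma adjusted p = 0.0475). That call was lost in 18 of 26 alternatives, with limma adjusted p of 0.0507 to 0.195, including median-of-ratios scaling (-0.18, adjusted p = 0.167), quantile normalization (-0.17, adjusted p = 0.195) and the fat score as a covariate (-0.27, adjusted p = 0.0712). After GW4064 Lpin3 was at 18.6, 15.7 and 15.7 TPM in FXR KO and 15.7, 14.9 and 17.2 TPM in WT libraries. The FXR KO values lay above their vehicle group (log2 0.20 ± 0.08, limma adjusted p = 0.389) and the WT values below theirs (-0.13 ± 0.08, limma adjusted p = 0.393). The interaction of 0.33 ± 0.11 did not pass (unadjusted p = 0.0122; limma adjusted p = 0.137).

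Summed lipin transcripts were 142, 157 and 158 TPM in FXR KO GW4064, 141, 185 and 143 in FXR KO vehicle, 112, 136 and 126 in WT GW4064 and 165, 182 and 172 in WT vehicle libraries. Lpin1 made up 27.4, 36.4 and 28.5% of that sum in WT GW4064 libraries, against 43.6, 48.7 and 46.6% in WT vehicle libraries. In WT GW4064 libraries Lpin2 held 52.6 to 58.6% of the TPM sum. Which lipin led depended on the scale: by coverage Lpin1 held 49.0, 59.5 and 50.5% and Lpin2 39.0, 31.9 and 37.8% in WT GW4064 libraries, against 66.4, 70.7 and 68.9% and 25.9, 22.5 and 23.7% in WT vehicle libraries. On both scales every WT GW4064 share of Lpin1 was below every WT vehicle share. The knockout shares of Lpin1 were 35.6, 46.6 and 41.3% with GW4064 and 41.1, 48.6 and 42.4% with vehicle, and those groups overlapped. By coverage they were 58.4, 69 and 64.4% with GW4064 and 64.2, 70.9 and 65.3% with vehicle.

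**Figure D2:**
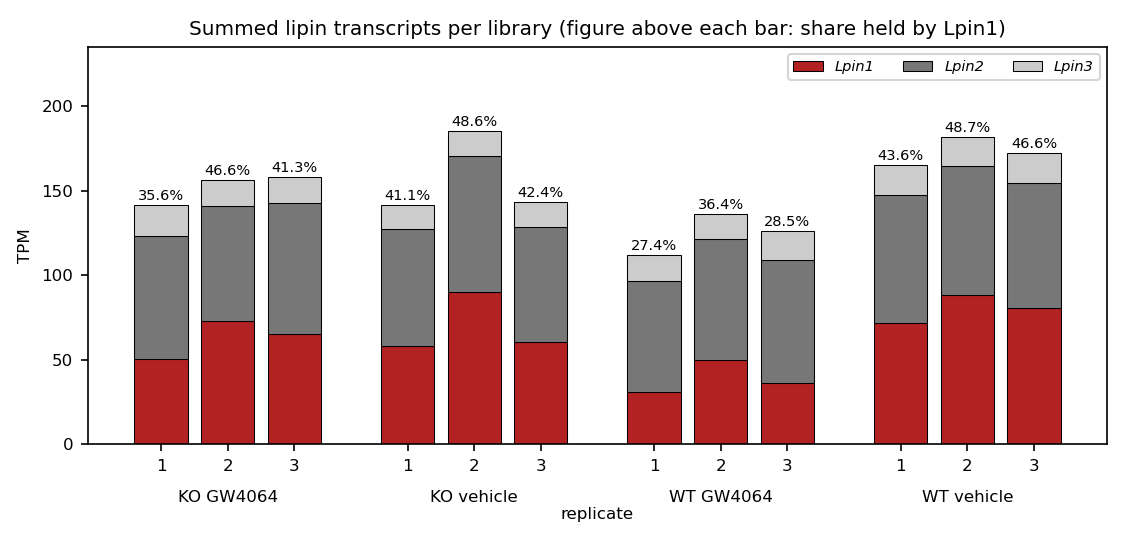
TPM of Lpin1, Lpin2 and Lpin3 in each library, as stacked bars that start at 0, with the share held by Lpin1 printed in percent above each bar. The Lpin1 share is 27.4 to 36.4% in WT GW4064 libraries and 43.6 to 48.7% in WT vehicle libraries by TPM, and by coverage, which is not drawn, 49.0 to 59.5% in WT GW4064 and 66.4 to 70.7% in WT vehicle libraries.

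Gpam, which encodes mitochondrial GPAT1, was higher in FXR KO than in WT kidneys on both treatments. It was at 143, 150 and 182 TPM in FXR KO GW4064 and 157, 166 and 143 in FXR KO vehicle libraries, against 114, 130 and 125 in WT GW4064 and 120, 127 and 124 in WT vehicle libraries. All 6 FXR KO libraries were above all 6 WT libraries, as held for 3.06% of all genes, while 7.65% were lower in all 6. The log2 difference was 0.33 ± 0.08 on vehicle (95% interval 0.14 to 0.51; limma adjusted p = 0.0287) and 0.36 ± 0.08 under GW4064 (0.17 to 0.55; limma adjusted p = 0.0125). On vehicle the limma adjusted p was 0.0894 without WT vehicle replicate 1, 0.0768 without WT vehicle replicate 3, 0.0754 without FXR KO vehicle replicate 1, 0.0955 without FXR KO vehicle replicate 2 and 0.0507 without a variance trend. Under GW4064 it was 0.0572 without WT GW4064 replicate 1. GW4064 itself gave log2 changes of 0.02 in FXR KO and -0.01 in WT, with 95% intervals of -0.16 to 0.21 and -0.2 to 0.18.

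Agpat3, the main AGPAT of the pair, was likewise higher in FXR KO kidneys, by less. It was at 258, 252 and 271 TPM in FXR KO GW4064 and 240, 252 and 244 in FXR KO vehicle libraries, against 222, 236 and 234 in WT GW4064 and 217, 217 and 220 in WT vehicle libraries. Again no WT library reached the FXR KO range. The log2 difference was 0.17 ± 0.04 on vehicle (95% interval 0.09 to 0.26; limma adjusted p = 0.015) and 0.18 ± 0.04 under GW4064 (0.09 to 0.26; limma adjusted p = 0.0079). On vehicle the limma adjusted p was 0.0504 without WT vehicle replicate 1 and 0.0504 without FXR KO vehicle replicate 2. No alternative lost the call under GW4064, where the highest limma adjusted p was 0.04.

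Agpat2, the AGPAT whose loss in humans causes generalized lipodystrophy, did not pass. It was at 32.9, 29.9 and 32.1 TPM in FXR KO GW4064, 29.1, 27.8 and 29.6 in FXR KO vehicle, 30.0, 37.0 and 34.5 in WT GW4064 and 32.7, 31.5 and 35.3 in WT vehicle libraries. On vehicle every FXR KO library was below every WT library, at a log2 difference of -0.20 ± 0.08 (95% interval -0.36 to -0.03; limma adjusted p = 0.105). Within each of the 4 groups the order of its values followed the fat score. On vehicle 3 of the 8 genes were called, Gpam and Agpat3 higher and Lpin3 lower in FXR KO, beside 12.9% of all genes tested (3.19% higher and 9.73% lower). Scaling moved the all-gene split on vehicle, which was 462 higher and 1410 lower as deposited, 846 and 533 with median-of-ratios scaling and 674 and 591 with quantile normalization.

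Promoter sequences are shown for Gpam and Agpat3, the genes called higher in FXR KO kidneys on both treatments, since the knocked-out protein is a factor that binds DNA. Windows of 300 bases, from 250 before to 50 after the transcription start, were taken from the RefSeq table of GRCm38.p6, which held 6 of the 8 genes. Capitals mark the nuclear receptor half-site AGGTCA on either strand. The Gpam window is chr19:55099428-55099727 and the Agpat3 window chr10:78351651-78351950, both on the minus strand.
Gpam: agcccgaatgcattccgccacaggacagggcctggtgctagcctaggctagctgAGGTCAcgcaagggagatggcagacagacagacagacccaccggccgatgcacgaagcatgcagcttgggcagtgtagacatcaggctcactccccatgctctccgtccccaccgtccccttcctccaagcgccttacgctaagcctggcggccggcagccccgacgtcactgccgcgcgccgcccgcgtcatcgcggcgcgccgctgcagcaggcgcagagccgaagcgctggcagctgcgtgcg
Agpat3: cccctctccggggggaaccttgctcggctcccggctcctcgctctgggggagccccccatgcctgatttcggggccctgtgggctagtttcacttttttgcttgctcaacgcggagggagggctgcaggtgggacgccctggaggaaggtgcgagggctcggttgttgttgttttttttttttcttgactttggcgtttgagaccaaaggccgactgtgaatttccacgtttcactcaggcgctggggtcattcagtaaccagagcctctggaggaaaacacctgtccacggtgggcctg
The half-site begins 196 bases before the start in this Gpam window, and the Agpat3 window does not hold these letters. The printed Gpam window belongs to the start nearest that of the deposited gene model, 30 bases away. A further Gpam window, at a start 27791 bases away, does not hold the half-site. AGGTCA occurs in 16.3% of all 32851 promoter windows. The inverted repeat AGGTCANTGACCT, the element FXR is known to bind, was searched on both strands and occurs in 3 of those windows, none of them printed here. The window in the table for Lpin1 belongs to a start 21196 bases from that of the deposited gene model and lies wholly outside it, so it is not printed.

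Dgat1 and Dgat2, the enzymes that add the last acyl chain, did not pass in any comparison. Dgat2 was at 147, 185 and 175 TPM in FXR KO GW4064, 177, 205 and 181 in FXR KO vehicle, 179, 194 and 177 in WT GW4064 and 212, 220 and 219 in WT vehicle libraries. The WT vehicle group lay above the other 3 groups, with no library of any of them as high. The summed collecting duct markers were arranged in the same way, and their part in this was not tested. The log2 change with GW4064 in WT was -0.24 ± 0.08 (95% interval -0.42 to -0.07; unadjusted p = 0.0102; limma adjusted p = 0.114), and the difference of FXR KO from WT on vehicle was -0.21 ± 0.08 (limma adjusted p = 0.0968). Both passed without FXR KO GW4064 replicate 1, at limma adjusted p of 0.0363 and 0.0353, and the first with only the 2 groups compared, at 0.0203. Of 26 alternatives, the first passed in 3 and the second in 2. The highest limma adjusted p were 0.28 for the first and 0.406 for the second. The log2 values ran from -0.28 to -0.21 and from -0.28 to -0.13. Dgat1 was at 38, 34.6 and 30.0 TPM in FXR KO GW4064, 36.9, 38.6 and 38 in FXR KO vehicle, 38.1, 37.8 and 36.9 in WT GW4064 and 35.1, 35.0 and 38.8 in WT vehicle libraries. Its groups overlapped in every comparison, and its log2 changes lay between -0.15 and 0.06 outside the interaction.

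**Figure D3:**
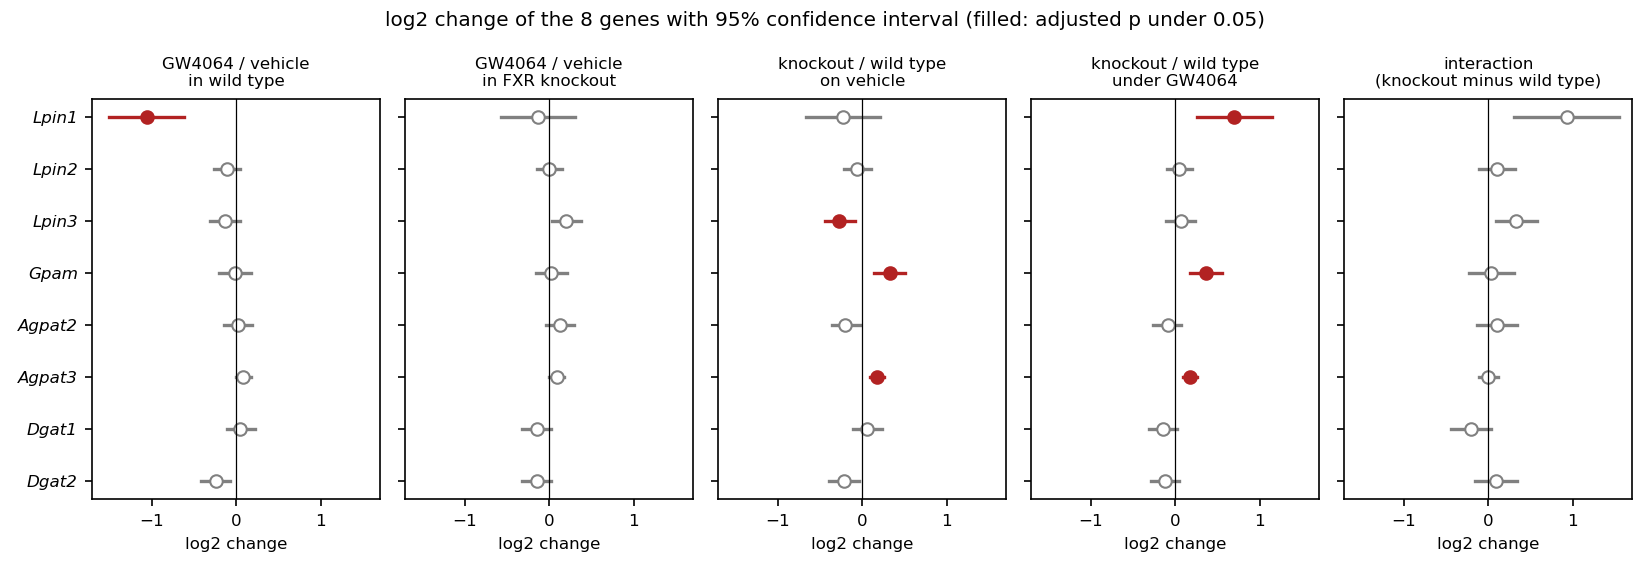
Log2 change of each of the 8 genes in the 5 comparisons, with points for the estimate and bars for the 95% interval, on a linear log2 axis. Lpin1 stands at -1.06 for GW4064 in WT and 0.70 for FXR KO against WT under GW4064, and the other genes lie within 0.36 of 0 in every comparison.

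Without regard to the test, GW4064 and vehicle groups of WT did not overlap for 5 of the 8 genes (1 higher and 4 lower), beside 26.8% of all genes (10.1% higher and 16.7% lower). Those of FXR KO did not overlap for 3 (all higher), beside 13.9% (8.78% higher and 5.07% lower). FXR KO and WT groups did not overlap for 5 on vehicle (2 higher and 3 lower), beside 34.7% of all genes (7.89% higher and 26.8% lower). Under GW4064 they did not overlap for 3 (all higher), beside 36.7% (14% higher and 22.7% lower). The median log2 change of the 8 genes was -0.06 for GW4064 in WT, 0.01 in FXR KO, -0.13 between genotypes on vehicle and 0.06 under GW4064, beside medians over all genes of -0.034, 0.02, -0.087 and -0.03. Summed over the 8 genes, FXR KO GW4064 libraries held 762, 809 and 849 TPM, FXR KO vehicle 781, 874 and 779, WT GW4064 695, 771 and 733 and WT vehicle 781, 812 and 809. The WT GW4064 sums were all below the WT vehicle sums.

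The wider pathway was read from 6 lists of 61 genes, of which 60 were tested. For GW4064 in WT, 5 were called higher and 5 lower. In FXR KO none was called, with 11 at an unadjusted p under 0.05, beside 1560 of the 14488 genes tested. For FXR KO against WT, 5 were higher and 7 lower on vehicle, and 13 were higher and 11 lower under GW4064. For the interaction 2 were higher and 4 lower. Of those called lower on vehicle, Agpat5, Gpd1, Gpd1l, Aqp3, Ppargc1a and Bscl2 lost the call with median-of-ratios scaling. Nfatc4 lost it in 0 of 25 alternatives. Those called higher on vehicle, Mogat1, Mef2d, Plin2, Plin5 and Mttp, kept the call with that scaling. Mef2d lost it in 15 of 26 alternatives. The shares of all genes called were 2.48% higher and 2.32% lower for GW4064 in WT, 0.0138% for GW4064 in FXR KO, 3.19% higher and 9.73% lower for FXR KO against WT on vehicle, 7.08% and 11.4% under GW4064, and 1.47% and 1.72% for the interaction. Each list's counts stand beside these same shares. The median log2 change over the 60 genes was -0.07 for GW4064 in WT, 0.01 for GW4064 in FXR KO, -0.04 and -0.02 for FXR KO against WT on vehicle and under GW4064, and 0.04 for the interaction.

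Among the 9 other acyltransferases, 0 rose and 2 fell with GW4064 in WT, 1 was higher and 1 lower in FXR KO on vehicle, and 3 were higher and 1 lower under GW4064, beside 4.8%, 12.9% and 18.5% of all genes called in those comparisons. Gpat3, an endoplasmic reticulum GPAT, was at 23.1, 26.8 and 23.3 TPM in FXR KO GW4064 libraries, against 13.4, 15.4 and 14.5 TPM in WT GW4064 libraries, and these groups did not overlap (log2 0.74 ± 0.08; limma adjusted p = 1.1e-04). In WT kidneys it fell by 0.42 on the log2 scale with GW4064 (limma adjusted p = 0.0151), a call lost with the fat score as a covariate and without WT vehicle replicate 2 or WT GW4064 replicate 1, at adjusted p of at most 0.073. Mogat1, which acylates monoacylglycerol, was at 218, 221 and 237 TPM in FXR KO GW4064 and 222, 243 and 221 in FXR KO vehicle, against 146, 161 and 145 in WT GW4064 and 158, 146 and 151 in WT vehicle libraries. All 6 FXR KO libraries were above all 6 WT libraries (log2 0.59 on vehicle and 0.58 under GW4064; limma adjusted p = 9.5e-05 and 3.2e-05). Mogat2 ran the other way under GW4064, at 11.5, 20.0 and 14.3 TPM in FXR KO and 25.7, 28.6 and 30.6 TPM in WT, with no overlap (log2 -0.90 ± 0.16; limma adjusted p = 0.00287).

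For the supply of glycerol 3-phosphate, 6 of 7 genes were tested. With GW4064 in WT 1 fell, on vehicle 3 were lower in FXR KO, and under GW4064 2 were higher and 1 lower. The 3 on vehicle were Gpd1 (log2 -0.20 ± 0.06; limma adjusted p = 0.0417), Gpd1l and Aqp3. Aqp3 is also among the collecting duct markers. These calls were lost in 14, 11 and 6 of 26 alternatives, each of them with median-of-ratios scaling. The gene that fell in WT was Gpd1, the cytosolic glycerol-3-phosphate dehydrogenase (log2 -0.27 ± 0.06; limma adjusted p = 0.0222). That call was lost in 8 of 26 alternatives, with the fat score, without any 1 of the 3 WT vehicle replicates and without WT GW4064 replicate 1 or 3 among them, at adjusted p of at most 0.0937. Gpd1 was at 333, 288 and 289 TPM in FXR KO GW4064 and 252, 266 and 257 TPM in WT GW4064 libraries, with no overlap (log2 0.23; limma adjusted p = 0.0175). In all, 3 alternatives lost that call, including without WT GW4064 replicate 1 and without WT GW4064 replicate 3, at adjusted p of at most 0.068. Gpd2, the mitochondrial enzyme, was also higher in FXR KO under GW4064, at 49.9 ± 12 TPM against 30.8 ± 0.91 TPM in WT (log2 0.66 ± 0.13; limma adjusted p = 0.00368).

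Of 5 genes for the lipin-activating phosphatase complex and the membrane phosphatidate phosphatases, 1 rose with GW4064 in WT and 2 were lower in FXR KO under GW4064. Plpp2, a membrane phosphatase with activity on phosphatidate, was at 73.9, 74.9 and 76.0 TPM in WT GW4064 libraries, against 53.9, 57.0 and 62.8 TPM in WT vehicle libraries (log2 0.37 ± 0.06; limma adjusted p = 0.00535). These groups did not overlap, and no alternative lost the call. Of 17 genes of the branches that use phosphatidate or diacylglycerol for other lipids, 2 rose with GW4064 in WT. Under GW4064, 1 was higher and 5 lower in FXR KO. Not every enzyme of these branches, Etnk1 among them, acts on phosphatidate or diacylglycerol itself. Crls1, cardiolipin synthase, was at 105, 94.8 and 89.5 TPM in WT GW4064, against 51.5, 46.2 and 47.2 TPM in WT vehicle libraries (log2 0.99 ± 0.08; limma adjusted p = 3.9e-05). The FXR KO libraries were at 40.7 to 48.9 TPM with GW4064 and 44.4 to 49.2 TPM with vehicle. Etnk1, an ethanolamine kinase, rose in WT with GW4064 (log2 0.36 ± 0.05; limma adjusted p = 0.00131).

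Among 10 nuclear partners of lipin 1, 1 fell with GW4064 in WT, 1 was higher and 2 lower in FXR KO on vehicle, and 2 were higher and 1 lower under GW4064. Ppara, the fatty acid receptor that lipin 1 can bind, was at 82.7, 85.0 and 83.9 TPM in WT GW4064, against 107, 118 and 113 TPM in WT vehicle libraries (log2 -0.42 ± 0.08; limma adjusted p = 0.0104), and no alternative lost the call. Of 13 genes for droplets and export, 2 rose and 1 fell with GW4064 in WT, 3 were higher and 1 lower in FXR KO on vehicle, and 5 were higher and 1 lower under GW4064, again beside 4.8%, 12.9% and 18.5% of all genes. Plin2, the droplet coat protein of most cells, was at 936, 743 and 743 TPM in FXR KO GW4064 and 429, 710 and 516 in FXR KO vehicle, against 166, 191 and 156 in WT GW4064 and 147, 126 and 144 in WT vehicle libraries. Every FXR KO library exceeded every WT library (log2 1.95 ± 0.16 on vehicle and 2.23 ± 0.16 under GW4064; limma adjusted p = 4.0e-05 and 3.8e-06). Mttp, which loads triglyceride onto apolipoprotein B, was at 48.6 ± 6.14 TPM in FXR KO GW4064 and 48.8 ± 2.57 in FXR KO vehicle, against 16.7 ± 1.72 in WT GW4064 and 18.4 ± 0.291 in WT vehicle libraries (SD, n = 3 each). Plin5, a droplet protein that tethers mitochondria, was at 27.8 ± 5.87 TPM in WT GW4064 and 9.39 ± 1.02 in WT vehicle libraries (log2 1.5 ± 0.15; limma adjusted p = 2.1e-04). In FXR KO libraries Plin5 was at 26.6 ± 1.75 TPM with GW4064 and 24.5 ± 4.85 TPM with vehicle, so it was near the WT GW4064 level on both treatments. These lists were written with earlier results of the same data known.

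**Figure D4:**
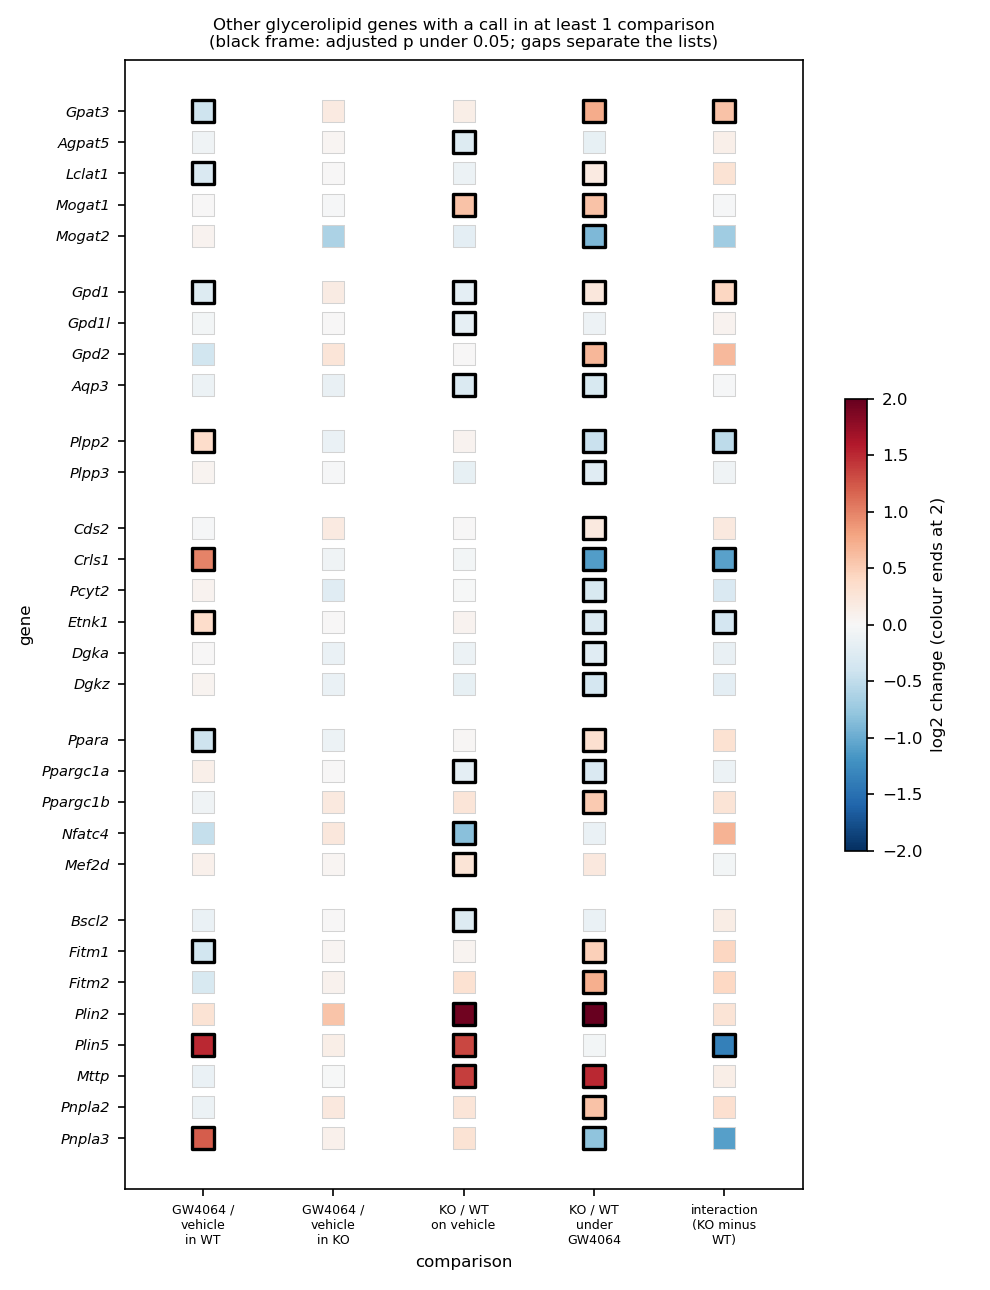
Log2 change, as colour, of the 30 genes of the 6 lists with a call in at least 1 of the 5 comparisons, with black frames on calls at an adjusted p under 0.05. Plin2 and Mttp are the strongest in the genotype comparisons and Crls1 and Plin5 rise with GW4064 in WT, and no gene has a frame in the GW4064 comparison of FXR KO.

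The genes most like Lpin1 in level across the 12 libraries were named as a description. Of 10980 genes with a mean of at least 5 TPM, Pck1, which makes phosphoenolpyruvate for gluconeogenesis and glyceroneogenesis, had the highest Pearson's r with Lpin1 at 0.956 (Spearman's rho 0.937). Slc25a10, the mitochondrial dicarboxylate carrier, followed at 0.951 (0.895), Ppara at 0.938 (0.972), Blvra, biliverdin reductase A, at 0.930 (0.951) and Acbd4, an acyl-CoA binding protein, at 0.912 (0.930). Without WT GW4064 replicates 1 and 3, the libraries farthest from the median in Lpin1, r was 0.866, 0.851, 0.901, 0.859 and 0.887. The libraries differ in depth, group and fat content, and the part of these in the correlations was not tested. These values are therefore only a description of the 12 libraries. Pck1 was at 3610 ± 766 TPM in WT GW4064 and 7700 ± 745 TPM in WT vehicle libraries (SD, n = 3 each). Slc25a10 was at 181 ± 13.5 TPM in WT GW4064 and 237 ± 3.43 TPM in WT vehicle libraries. Of the other 7 genes, Lpin2 had r = 0.60 with Lpin1, Dgat2 0.59, Gpam 0.39, Agpat3 0.04, Lpin3 0.03, Dgat1 -0.21 and Agpat2 -0.22.

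**Figure D5:**
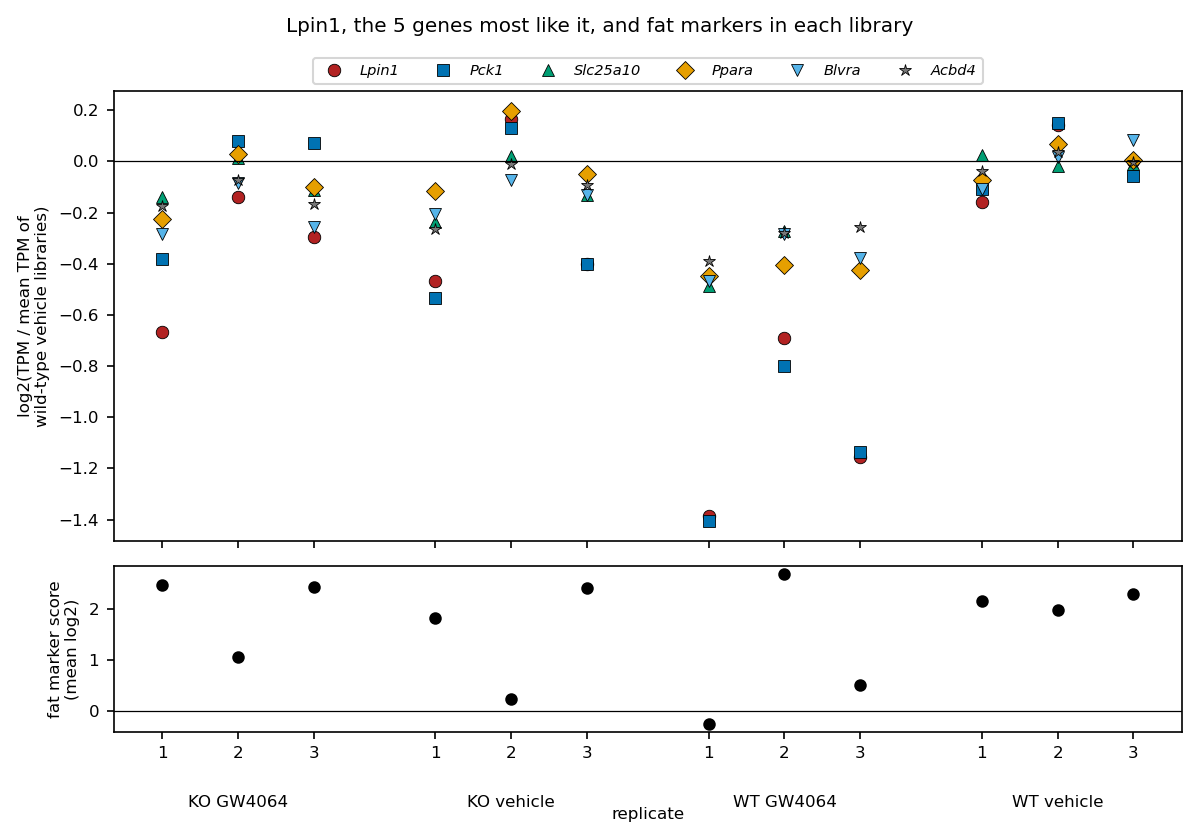
Upper panel, log2 of TPM over the mean of the WT vehicle libraries for Lpin1 and the 5 genes most like it in each library; lower panel, the mean log2 of the 4 fat markers. Lpin1 and Pck1 lie farthest below 0 in WT GW4064 replicates 1 and 3, the libraries with the low fat scores of -0.26 and 0.52, while FXR KO vehicle replicate 2 has a low fat score of 0.24 and high Lpin1.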

How the data were processed

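Total RNA of 12 kidney samples, extracted with Trizol, was made into stranded total RNA libraries by the authors, per the labels' protocols. The build mm10 and the tools Cufflinks, HISAT2 and StringTie are listed per the submitters' processing notes, without versions, roles or a strand setting. TPM as deposited is a per-length level that the authors scaled to a sum of 1000000 in each library. The deposited FPKM values of the authors are a constant multiple of TPM in each library. The deposited coverage signal, the authors' mean depth over a gene, was used for depth and for levels between genes. Identifiers with several entries (113 to 142 per library) were summed, and 24462 of 24532 had a RefSeq symbol.

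Values were taken as log2(TPM + 0.5), which draws low genes toward 0. The filter of 1 TPM or more in 3 or more libraries left 14488 genes, including all 8 described here, which were fitted in R 4.3.3 with limma 3.58.1 (variance trend, 1 mean per group, 12 libraries). Benjamini-Hochberg adjustment ran over all genes, separately for 5 comparisons, and a gene was called under 0.05. No read counts were used. An exact permutation test of 3 against 3 cannot go below 0.1 and was not used. Errors are SD for TPM and SE for log2 changes, and no counting interval was possible. No library pair was identical. Tables and figures used Python 3.11.15, pandas 2.3.3, numpy 2.4.6 and matplotlib 3.10.9. Alternatives were other pseudocounts, filters, scalings, fits and covariates, leaving out each library, and, added after seeing the data, protein-coding genes only and lipin shares from coverage.

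The 8 genes, the pathway and marker lists and the tests were chosen with earlier results of these data known. All 8 are named, and from the lists any called gene could be named, as were the 5 genes most correlated with Lpin1.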

Additional observations from a re-analysis of the deposited data

Results flagged for a closer look

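For 6 of the 60 tested genes of the pathway lists, beside 3.19% of all genes, and for none of the 8 genes themselves, the GW4064 effect differed between FXR KO and WT by the interaction test in limma (Benjamini-Hochberg). Crls1 gave an interaction of -1.08 ± 0.11 (adjusted p = 5.5e-04 in limma), with log2 changes of -0.09 in FXR KO and 0.99 in WT. Plin5 gave -1.37 ± 0.22 (limma adjusted p = 0.00682), with changes of 0.13 in FXR KO and 1.5 in WT. Its vehicle levels differed, at 24.5 ± 4.85 TPM in FXR KO and 9.39 ± 1.02 TPM in WT, and limma called that genotype difference in all 26 alternatives. Plpp2 gave -0.52 ± 0.09 (limma adjusted p = 0.0101), with changes of -0.14 in FXR KO and 0.37 in WT. For Crls1, Plin5 and Plpp2 no alternative lost the call. Etnk1 gave -0.36 ± 0.07 (limma adjusted p = 0.018), with changes of 0 in FXR KO and 0.36 in WT, and lost the call without WT GW4064 replicate 1 or FXR KO vehicle replicate 1, at adjusted p of at most 0.0571. Gpat3 gave 0.59 ± 0.12 (limma adjusted p = 0.0215), with changes of 0.18 in FXR KO and -0.42 in WT, and Gpd1 gave 0.43 ± 0.08 (limma adjusted p = 0.0174), with changes of 0.16 in FXR KO and -0.27 in WT. Without WT GW4064 replicate 1, without FXR KO vehicle replicate 1 and with the fat score, the last 2 lost the call, at limma adjusted p of at most 0.0827 for Gpat3 and 0.066 for Gpd1.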

How the results depend on the processing

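Of 40 values, 8 genes in 5 comparisons, 31 kept their side of the threshold in all alternatives. A change of sign was counted only where the value was called, and 0 reversed in this way. Some values without a call did change sign, such as Lpin1 for GW4064 in FXR KO, which ran from -0.25 to 0.07. For GW4064 in WT the number of the 8 genes called was 1, and 2 with only the 2 groups compared, 2 with the replicate block and 0 to 2 leaving out 1 library (0 without WT GW4064 replicate 1, 2 without FXR KO GW4064 replicate 1). For FXR KO against WT on vehicle it was 3, and 1 without a variance trend and 0 to 4 leaving out 1 library (0 without WT vehicle replicate 1 or FXR KO vehicle replicate 2, 1 without WT vehicle replicate 3 or FXR KO vehicle replicate 1, 4 without FXR KO GW4064 replicate 1). Under GW4064 it was 3, and 1 to 3 leaving out 1 library (1 without WT GW4064 replicate 1). For the interaction it was 0, and 1 with the replicate block and 0 to 1 leaving out 1 library (1 without FXR KO vehicle replicate 2). For GW4064 in FXR KO it was 0 throughout. Replicate numbers did not pair libraries (18 pairs, r -0.075 to 0.083, 4 of 12 libraries closest to their own number). With the block, Lpin1 passed the interaction and Dgat2 passed for GW4064 in WT and on vehicle between genotypes (limma adjusted p = 0.00623, 0.0427 and 0.0395).

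Over all genes, 696 calls for GW4064 in WT became 428 with the fat score and 334 to 768 leaving out 1 library (334 without WT GW4064 replicate 1, 407 without WT GW4064 replicate 2, 449 without WT vehicle replicate 1, 390 without WT vehicle replicate 3). The 462 interaction calls became 207 with the fat score and 216 to 535 leaving out 1 library (lowest without WT GW4064 replicate 1). The 2 calls for GW4064 in FXR KO became 0 with only the 2 groups, the block or no variance trend, and 0 to 51 leaving out 1 library (51 without FXR KO GW4064 replicate 2, 31 without FXR KO vehicle replicate 2). The 1872 on vehicle became 926 to 1903 (lowest without WT vehicle replicate 3) and the 2677 under GW4064 1726 to 2760 (lowest without WT GW4064 replicate 1). The split for GW4064 in WT, 360 higher and 336 lower, was 458 and 226 with median-of-ratios scaling, and that of the interaction, 213 and 249, was 138 and 362. The cause was not tested. The interaction could not be fitted with only 2 groups, and the precision is limited by 3 libraries a group.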
